A study of Homo sapiens with 48 samples.

Results

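Fibronectin (FN1) and 9 integrin subunits (ITGA1, ITGA2, ITGA3, ITGA5, ITGA11, ITGAV, ITGB1, ITGB3 and ITGB5) were followed in fibroblasts stimulated with TGFβ and IL-1β. The 10 genes were taken by symbol from a table of 29744 genes, and each passed the filter on low counts in both arms of the study. The cells were IL11mNG fibroblasts, which are single-cell clones of the immortalized human skin fibroblast line CRL-4001 that carry a fluorescent reporter of IL11. In the CRISPRko arm the cells expressed Cas9 and received a lentiviral guide RNA against GLIS3 (H47_KO) or a non-targeting guide (H47_Ctrl), and in the CRISPRa arm they carried dCas9 fused to VP64, a transcriptional activator, with a guide of either kind (VP64_A and VP64_Ctrl). The cultures were drug-selected bulk populations rather than clones of edited cells, so a culture may mix cells with and without an edit. Each group was sampled without cytokines (0 h) and after 6, 12 and 24 h with both cytokines at 10 ng per ml, in DMEM with serum, with 3 libraries per condition and 48 in all. The sample titles and descriptions of the CRISPRa arm name opposite groups as the control. Its groups are called here by their descriptions, and each difference is given as VP64_A over VP64_Ctrl. GLIS3 itself had 16.64 to 36.74 CPM (counts scaled to normalized library size) in the libraries labelled VP64_A and 1.906 to 6.308 in those labelled VP64_Ctrl. In the CRISPRko arm it had 0.1442 to 1.635 CPM in H47_KO and 1.449 to 6.469 in H47_Ctrl, and the difference passed the test at 0 h alone of the 4 times (adjusted p = 0.0355, edgeR).

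Integrins are receptors made of an α and a β subunit, and the pairing decides which matrix protein is bound. The β1 subunit pairs with α1, α2 and α11 to bind collagen, with α3 to bind laminin and with α5 to bind fibronectin, whereas αV pairs with β1, β3 or β5 to bind proteins with an RGD motif such as fibronectin and vitronectin, and to release TGFβ from its latent complex. In fibroblasts, fibronectin is assembled into fibrils through α5β1, and the fibrils serve as a scaffold for collagen and for the latent complex.

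The members lie on 7 chromosomes. In GRCh38 (GENCODE 44), FN1 (ENSG00000115414) spans positions 215360440 to 215436073 of chromosome 2 on the minus strand, and ITGAV (ENSG00000138448) positions 186590010 to 186680901 of the same chromosome on the plus strand. ITGA1 (ENSG00000213949, 52787916 to 52959209) and ITGA2 (ENSG00000164171, 52989340 to 53094779) are neighbours on the plus strand of chromosome 5, with 30130 bases between them. ITGA5 (ENSG00000161638) is at 54395261 to 54419266 of chromosome 12 on the minus strand, ITGA11 (ENSG00000137809) at 68296532 to 68432163 of chromosome 15 on the minus strand, and ITGB1 (ENSG00000150093) at 32887273 to 33005792 of chromosome 10 on the minus strand. ITGA3 (ENSG00000005884, 50055968 to 50090481) and ITGB3 (ENSG00000259207, 47253827 to 47313743) are both on the plus strand of chromosome 17, and ITGB5 (ENSG00000082781) is at 124761948 to 124901418 of chromosome 3 on the minus strand.

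The windows from 250 bases before to 20 bases after the annotated start are shown for the 4 members on which the results turn, the ligand and its main α subunit (FN1, ITGA5), the α subunit with the largest rise after cytokines (ITGA2) and the one that differed most between VP64_A and VP64_Ctrl (ITGA11). They were taken from RefSeq on GRCh38, and read 5′ to 3′ on the strand of the gene. Capitals mark matches to the motifs searched.
FN1, chr2:215436049-215436318, minus strand: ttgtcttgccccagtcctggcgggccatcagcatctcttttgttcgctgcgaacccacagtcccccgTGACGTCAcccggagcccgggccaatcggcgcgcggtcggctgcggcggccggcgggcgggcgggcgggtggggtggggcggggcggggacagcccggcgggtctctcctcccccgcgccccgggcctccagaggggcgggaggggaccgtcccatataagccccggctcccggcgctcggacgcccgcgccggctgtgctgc
ITGA5, chr12:54419247-54419516, minus strand: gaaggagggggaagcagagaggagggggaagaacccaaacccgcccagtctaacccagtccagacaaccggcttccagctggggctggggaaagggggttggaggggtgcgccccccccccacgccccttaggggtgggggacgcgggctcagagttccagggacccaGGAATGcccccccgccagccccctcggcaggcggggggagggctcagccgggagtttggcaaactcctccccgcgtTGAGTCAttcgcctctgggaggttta
ITGA2, chr5:52989102-52989371, plus strand: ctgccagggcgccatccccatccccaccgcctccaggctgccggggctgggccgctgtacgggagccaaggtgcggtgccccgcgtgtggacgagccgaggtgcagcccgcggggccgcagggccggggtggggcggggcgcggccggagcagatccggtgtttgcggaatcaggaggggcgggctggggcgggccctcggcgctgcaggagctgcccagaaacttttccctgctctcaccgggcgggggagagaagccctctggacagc
ITGA11, chr15:68432144-68432413, minus strand: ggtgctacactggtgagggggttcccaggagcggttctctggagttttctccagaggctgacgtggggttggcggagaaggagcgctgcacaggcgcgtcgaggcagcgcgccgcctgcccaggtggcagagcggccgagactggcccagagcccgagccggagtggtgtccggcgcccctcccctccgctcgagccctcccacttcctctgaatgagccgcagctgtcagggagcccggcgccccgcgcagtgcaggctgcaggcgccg
The motifs were those of AP-1 (TGANTCA), CREB-type factors (TGACGTCA), TEAD (GGAATG), SMAD (GTCTAGAC) and a GLIS-type zinc finger (TGGGGGGT), each read on both strands, and no 2 matches overlapped in the windows shown. The FN1 window holds TGACGTCA, whose first base is 183 bases before the start, and 1.83% of 35116 promoter windows of the same length hold this motif. The ITGA5 window holds GGAATG 82 bases and TGAGTCA 6 bases before the start, motifs that 12.9% and 7.13% of all windows hold. Of the 12 windows listed for 8 members, 1 of ITGB1 also holds GGAATG, 182 bases before its start, and none holds GTCTAGAC or TGGGGGGT, which 0.185% and 1.38% of all windows hold. ITGA3 and ITGB3 had no window. The GC content was 77.0% for FN1, 68.5% for ITGA5, 75.2% for ITGA2 and 71.5% for ITGA11, against a median of 58.1% over all windows.

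Library totals ranged from 2321990 to 10661004 estimated counts (median 5139646). The fibroblast genes COL1A1 and COL1A2 had at least 222.5 and 1123 TPM (counts scaled to transcript length and library size) in every library. One library stood furthest apart: replicate 3 of VP64_Ctrl at 0 h had the highest TMM normalization factor (1.84, range 0.681 to 1.84) and the lowest share of counts in its 50 most abundant genes (23.1%, range 23.1% to 46.4%). Each call of a member that uses it is given with and without it. The next highest factors were those of replicate 3 of H47_KO at 0 h (1.503, with 30.7% of counts in the 50 genes) and at 24 h (1.507, with 31.4%). FN1 was lowest in these 2 libraries among those of their conditions, with 14600 and 25920 CPM. The 13 calls of members in H47_KO against 0 h became 11 without the first and 14 without the second, and the calls against 0 h that ended or were gained are given with their genes. The most abundant members moved with the normalization factor. After the mean of each condition was subtracted, log2 CPM across the 48 libraries correlated with the log2 factor at Pearson's r = -0.87 for FN1, -0.88 for ITGB1 and -0.81 for ITGA5, and between -0.11 and 0.46 for the other 7 members. The factor is also the divisor of the CPM, so these points share it, and its part in the differences below was not tested. Values scaled by library totals alone are therefore given beside the edgeR calls of FN1, ITGA5 and ITGB1, and beside some of their changes without a call. The labels do not say whether the 3 libraries of a condition came from separate cultures, so p-values measure the spread between these libraries, which may be technical. Where libraries of 2 conditions are said not to overlap, the share of all genes without overlap was not counted, so this is a description. In these bulk samples a lower level cannot be told apart as fewer expressing cells or less RNA per cell.

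Per transcript length, FN1 was the most abundant member in every condition, and ITGB1 and ITGA5 followed. In H47_Ctrl at 0 h the TPM was 7841 ± 778 for FN1, 2666 ± 467 for ITGB1 and 261 ± 33.8 for ITGA5 (SD, n = 3 for each). A long gap separated these from the rest. ITGA2 (20.8 ± 5.11 TPM), ITGB5 (18.3 ± 3.40) and ITGA1 (14.8 ± 4.05) came next with overlapping libraries, then ITGA3 (9.89 ± 0.712), ITGAV (6.81 ± 1.68), ITGA11 (1.62 ± 0.274) and ITGB3 (1.06 ± 0.166). By count, which favours long transcripts, FN1 was the single most abundant gene in 27 of the 48 libraries and ranked 11 at its lowest. By TPM it ranked 8 at its highest and 91 at its lowest, with a median rank of 19. Among the 6 α subunits that are members, ITGA5 held 68.8% to 90.7% of the summed TPM in every library. Among the 3 β subunits that are members, ITGB1 held 95.8% to 99.6%. The TPM of ITGB1 was 2.63 to 10.8 times the summed TPM of the member α subunits. Subunits outside the members, such as ITGA4, are not in these sums.

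**Figure D1:**
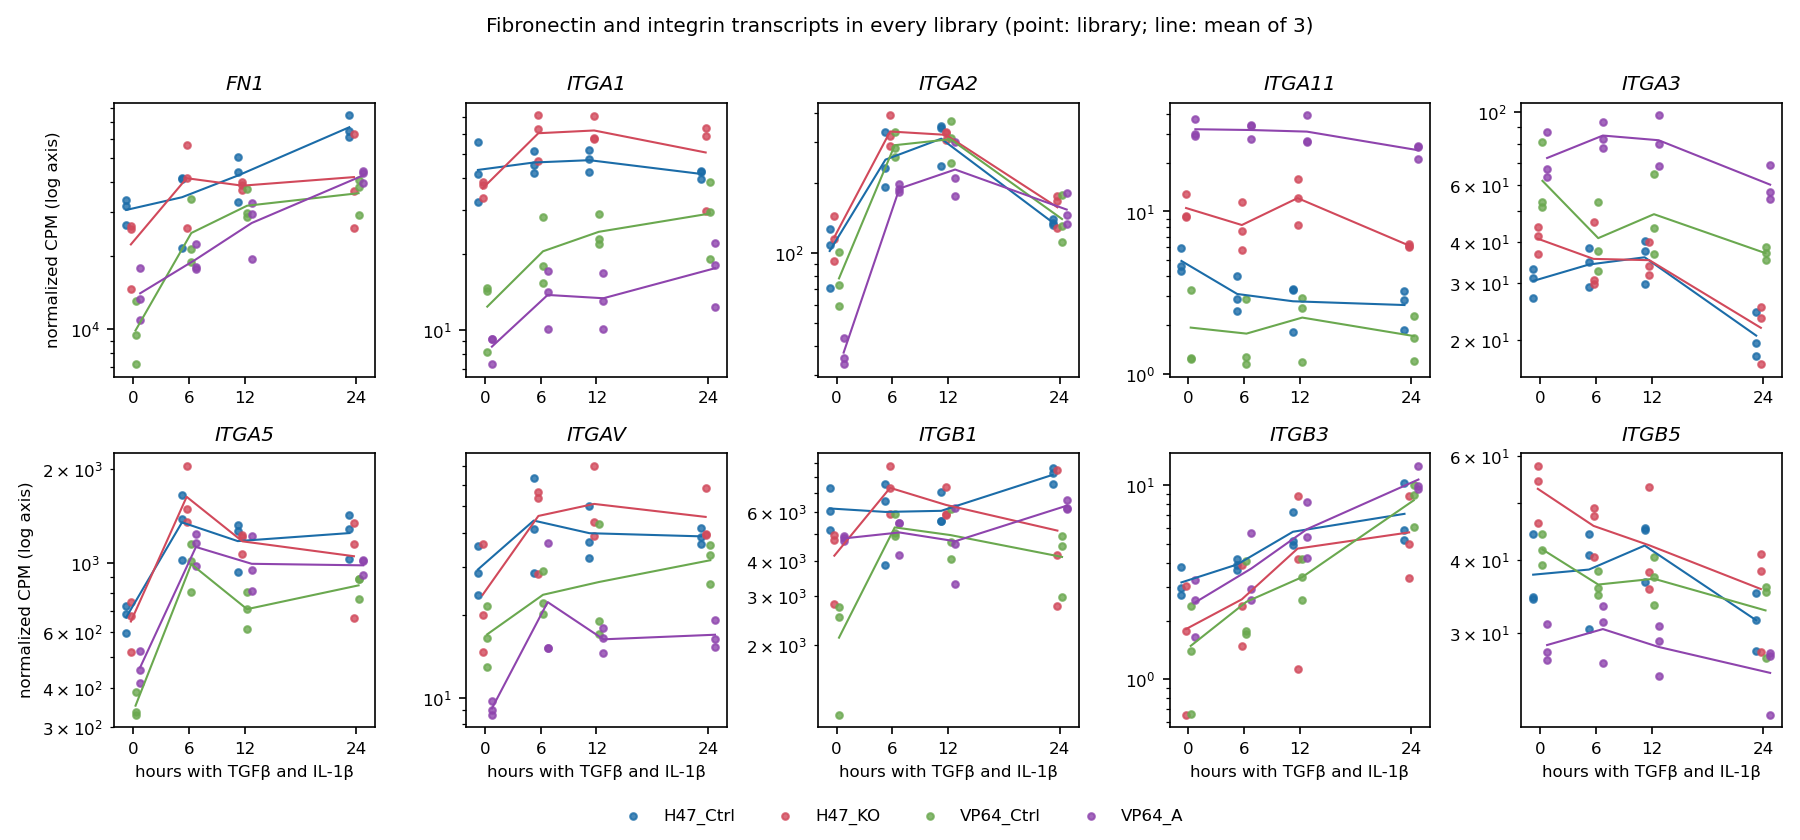
Normalized CPM (log axis, a different scale in each panel) of the 10 genes against hours with TGFβ and IL-1β, with 1 point per library, 4 colours for the 4 groups of cells and lines through the means of 3 libraries. ITGA2 rose and fell back in part in each group, ITGB3 was highest on average at 24 h in each group, and the 12 ITGA11 libraries of VP64_A (21.15 CPM or more) lie above all others (15.92 CPM or less).

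Addition of TGFβ and IL-1β raised ITGA2 and ITGA5 in all 4 groups, while ITGA3 and ITGB5 changed little or fell. ITGB3 was called higher in H47_KO, VP64_Ctrl and VP64_A, and FN1 in VP64_Ctrl and VP64_A. In both CRISPRko groups FN1 at 24 h passed only under other settings, such as library totals. For neither gene did the responses of the 2 controls differ past the threshold with edgeR. Against 0 h, the test (edgeR's quasi-likelihood test, threshold 0.05 on the adjusted p) was passed in H47_Ctrl by 2 members at 6 h (15.9% of all genes passed), 2 at 12 h (19.6%) and 1 at 24 h (10.3%), all higher. In H47_KO 4 passed at 6 h (23.9% of all genes), 5 at 12 h (27.4%) and 4 at 24 h (15.8%), of which 2 of the last were lower. In VP64_Ctrl 6 passed at 6 h (28.8%), 6 at 12 h (26.8%) and 8 at 24 h (16% of all genes), with 1 lower at 6 h and 1 lower at 24 h. In VP64_A 3 passed at 6 h (17.4%), 5 at 12 h (19.7%) and 5 at 24 h (13.6%), all higher. The median log2 fold change of the 10 members at 24 h was 0.39 in H47_Ctrl, 0.46 in H47_KO, 0.935 in VP64_Ctrl and 0.96 in VP64_A, where the median over all genes lay between -0.002 and 0.021. Without replicate 3 of VP64_Ctrl at 0 h, 17 of the 20 calls of VP64_Ctrl were made.

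**Figure D2:**
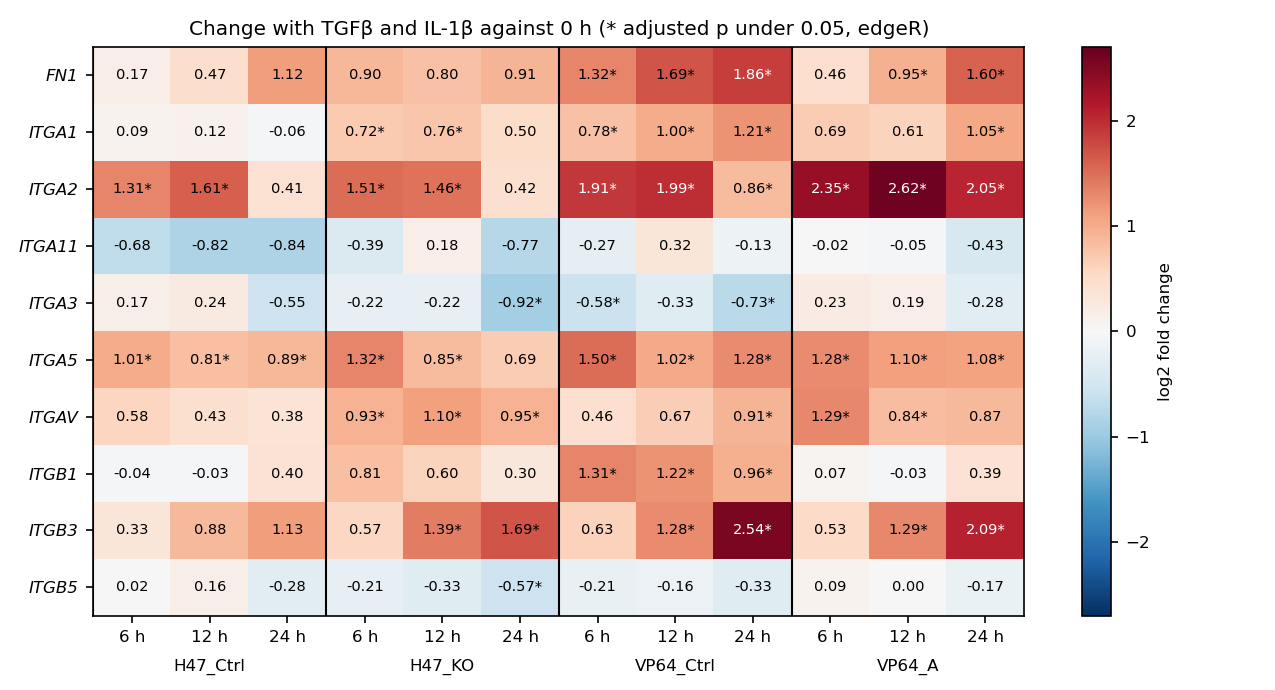
Log2 fold change of each gene (rows) at 6, 12 and 24 h against 0 h in each group (columns), in red where higher and blue where lower, with a star where the edgeR adjusted p was under 0.05. The rows of ITGA2 and ITGA5 are red throughout, with 10 and 11 of 12 cells starred, and the row of ITGA11 has no star.

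FN1 took 1.20% to 6.43% of all counts of a library. In VP64_Ctrl the 3 libraries had 9499, 13000 and 7215 CPM at 0 h and 40490, 38060 and 29220 at 24 h. The groups did not overlap, and FN1 rose at the 3 times by 1.32 ± 0.322, 1.69 ± 0.326 and 1.86 ± 0.327 (log2 fold change ± SE, in order of time; adjusted p = 0.00238, 0.000175 and 7.55e-05, edgeR). Without the library that stood furthest apart, these values were 1.12, 1.48 and 1.66 (adjusted p = 0.00783, 0.000616 and 0.000235). Scaled by library totals, all 3 calls held at 0.57, 1.09 and 1.45 (adjusted p = 0.000867, 1.03e-07 and 1.57e-10). In VP64_A, FN1 had 10970, 17810 and 13330 CPM at 0 h and 44390, 39600 and 43400 at 24 h, a rise of 1.60 ± 0.325 (adjusted p = 0.000548). The rise was gradual there, with 0.46 ± 0.318 at 6 h (adjusted p = 0.351) and 0.95 ± 0.320 at 12 h (adjusted p = 0.0325). The 12 h call was lost on leaving out replicate 1 or 3 of either time (0.80 to 0.91, adjusted p up to 0.155), and so was the rise of 1.14 ± 0.321 from 6 to 24 h (adjusted p = 0.0158, then up to 0.0731). With library totals these 3 values of VP64_A were 1.28 at 24 h, 0.64 at 12 h and 1.07 from 6 to 24 h (adjusted p = 3.23e-09, 0.000830 and 2.44e-07).

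In H47_Ctrl, FN1 began higher, with 33670, 31790 and 26620 CPM at 0 h, and reached 61020, 74660 and 64440 at 24 h. The libraries of the 2 times did not overlap, but the log2 fold change of 1.12 ± 0.417 missed the threshold (adjusted p = 0.0891, edgeR). It passed when only the libraries compared were fitted (1.10, adjusted p = 6.95e-06), with DESeq2 (1.11, adjusted p = 0.0100) and with library totals in place of TMM (0.89, adjusted p = 1.54e-05). In H47_KO the 3 libraries spread from 25920 to 62700 CPM at 24 h, and no change against 0 h passed (0.91 ± 0.415 at 24 h, adjusted p = 0.143), whereas with library totals all 3 did (0.40, 0.55 and 0.94 at 6, 12 and 24 h, adjusted p = 0.0259, 0.00406 and 4.63e-06). Without replicate 3 of 0 h the 24 h value of H47_KO was 0.69 (adjusted p = 0.289), and without replicate 3 of 24 h it was 1.17 (adjusted p = 0.0661). As a share of all counts, FN1 went from 3.34% ± 0.392 to 6.19% ± 0.366 in H47_Ctrl, from 2.44% ± 0.245 to 4.69% ± 0.986 in H47_KO, from 1.38% ± 0.170 to 3.78% ± 0.359 in VP64_Ctrl and from 1.55% ± 0.383 to 3.76% ± 0.154 in VP64_A between 0 and 24 h (SD, n = 3 for each). On this scale the 24 h libraries lay above the 0 h libraries in all 4 groups.

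**Figure D3:**
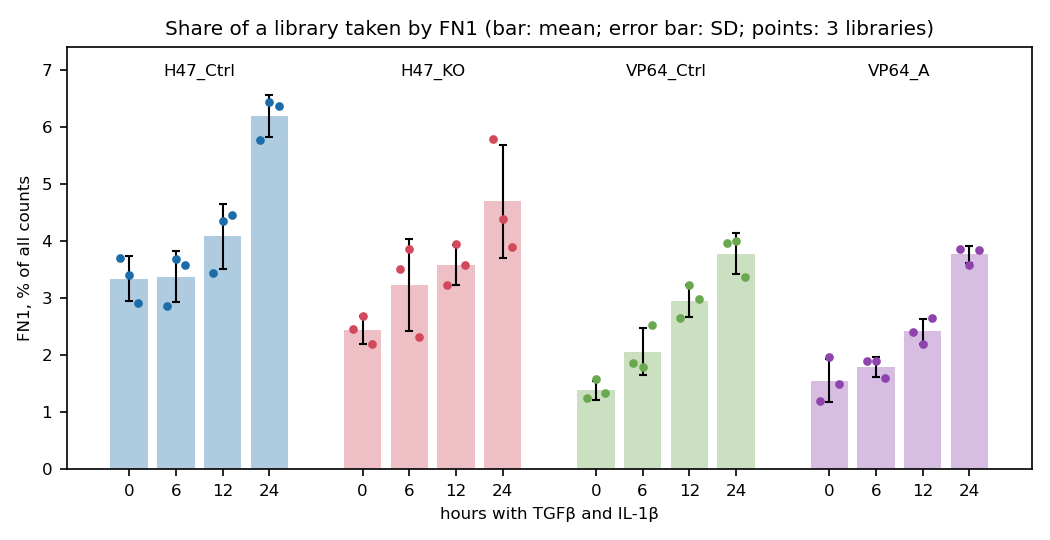
Share of all counts of a library taken by FN1 (%) by group and hours with the cytokines; bars are means, error bars the SD and points the 3 libraries. The mean is highest at 24 h in each group, from 3.76% in VP64_A to 6.19% in H47_Ctrl.

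ITGA5, the α subunit of the main fibronectin receptor, rose early and stayed high. In VP64_Ctrl it had 334.5, 387.9 and 327.7 CPM at 0 h and 807.6, 1013 and 1153 at 6 h. In H47_Ctrl it had 728.1, 597.7 and 685.6 CPM at 0 h and 1020, 1378 and 1646 at 6 h. No 6 h library overlapped a 0 h library in any group, and the log2 fold change at 6 h was 1.01 ± 0.249 in H47_Ctrl, 1.32 ± 0.251 in H47_KO, 1.501 ± 0.195 in VP64_Ctrl and 1.28 ± 0.194 in VP64_A (adjusted p = 0.00378, 0.000163, 3.81e-07 and 7.41e-06, edgeR). At 24 h it was 0.89 ± 0.249, 0.69 ± 0.248, 1.28 ± 0.194 and 1.08 ± 0.193 in the same order, and that of H47_KO alone missed the threshold (adjusted p = 0.0536). In H47_Ctrl the calls at 12 h (0.81, adjusted p = 0.0183) and 24 h (adjusted p = 0.0157) were lost on leaving out replicate 2 of 0 h, or replicate 2 or 3 of the later time (0.71 to 0.76 and 0.79 to 0.87, adjusted p up to 0.0877 and 0.0889). With library totals in place of TMM, ITGA5 in order of time was higher by 0.88, 0.63 and 0.66 in H47_Ctrl (adjusted p = 1.24e-05, 0.00120 and 0.00109) and by 0.73, 0.38 and 0.83 in VP64_Ctrl (adjusted p = 4.63e-05, 0.0179 and 1.14e-05). On the same scale it was higher by 0.81, 0.57 and 0.72 in H47_KO (adjusted p = 4.81e-05, 0.00281 and 0.000322) and by 1.02, 0.81 and 0.76 in VP64_A (adjusted p = 1.95e-07, 1.85e-05 and 4.43e-05), so that all 12 passed. Without replicate 3 of 24 h in H47_KO the TMM value at 24 h also passed (0.94, adjusted p = 0.00808). Without the library that stood furthest apart, the calls of VP64_Ctrl held at 1.43, 0.95 and 1.22 (adjusted p = 4.69e-06, 0.000925 and 6.66e-05). The ratio of FN1 to ITGA5 in TPM in VP64_Ctrl went from 18.6 ± 4.03 before stimulation to 16.1 ± 3.35 after 6 h and 28.3 ± 0.765 after 24 h, and in VP64_A from 18.3 ± 2.46 to 10.68 ± 0.776 and 28.4 ± 0.271 (SD, n = 3 for each). In H47_Ctrl it went from 30.2 ± 3.32 to 15.96 ± 2.24 and 33.8 ± 2.36. The 6 h libraries of H47_Ctrl and VP64_A lay below those of each other time.

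ITGA2, the α subunit of the collagen receptor α2β1, had the largest early response. In H47_Ctrl it had 71.02, 108.2 and 127.8 CPM at 0 h, 346.1, 236.5 and 351.8 at 12 h and 134.4, 132.7 and 140.1 at 24 h. In VP64_A it had 33.31, 35.47 and 43.33 CPM at 0 h, 302.4, 175.8 and 210.1 at 12 h and 146.7, 133.8 and 182.3 at 24 h. The levels of the 4 groups at 24 h lay between 112.1 and 182.3 CPM although those at 0 h ran from 33.31 to 144.8. ITGA2 rose at 12 h by 1.61 ± 0.217 in H47_Ctrl, 1.46 ± 0.214 in H47_KO, 1.99 ± 0.214 in VP64_Ctrl and 2.62 ± 0.223 in VP64_A (adjusted p = 7.89e-07, 2.57e-06, 1.01e-08 and 6.55e-11, edgeR). It then fell. From 6 to 24 h the log2 fold change was -0.90 ± 0.214 in H47_Ctrl, -1.08 ± 0.213 in H47_KO and -1.05 ± 0.210 in VP64_Ctrl (adjusted p = 0.00345, 0.000282 and 0.000460), and -0.30 ± 0.209 in VP64_A (adjusted p = 0.401). The fall in H47_Ctrl was lost without replicate 3 of 6 h (-0.65, adjusted p = 0.0515). With library totals the fall in H47_KO was -0.45 (adjusted p = 0.126). At 24 h against 0 h ITGA2 was higher in VP64_A (2.05 ± 0.220, adjusted p = 9.82e-09) and VP64_Ctrl (0.86 ± 0.210, adjusted p = 0.00386; 0.62 and adjusted p = 0.0535 without replicate 3 of 24 h; 0.37 and adjusted p = 0.219 with library totals). Without the library that stood furthest apart, ITGA2 in VP64_Ctrl was higher by 2.12, 2.20 and 1.08 in order of time (adjusted p = 2.13e-08, 1.22e-08 and 0.000772).

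Over the interval from 6 to 24 h, 2 members passed in each group. They were ITGA2 and ITGA3, both lower, in H47_Ctrl (14.6% of all genes passed) and in H47_KO (24.2%). In VP64_Ctrl they were ITGB3, higher, and ITGA2, lower (18.4% of all genes), and in VP64_A FN1 and ITGB3, both higher (12.5%). FN1 was not called in the other groups with TMM (0.95 in H47_Ctrl, 0.015 in H47_KO and 0.54 in VP64_Ctrl). Scaled by library totals, it passed in all of these (0.88, 0.54 and 0.88, adjusted p = 2.18e-05, 0.00363 and 9.30e-06, edgeR).

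ITGA1, whose receptor α1β1 binds collagen and basement membrane, was flat in H47_Ctrl, where all 12 libraries lay between 32.14 and 55.86 CPM. In VP64_Ctrl it had 8.188, 14.67 and 14.22 CPM at 0 h and 29.32, 38.56 and 19.17 at 24 h, without overlap. It rose there by 0.78 ± 0.270, 1.00 ± 0.264 and 1.21 ± 0.262 at 6, 12 and 24 h (adjusted p = 0.0285, 0.00455 and 0.00106, edgeR), in H47_KO by 0.72 ± 0.205 and 0.76 ± 0.198 at 6 and 12 h (adjusted p = 0.00997 and 0.00411), and in VP64_A by 1.05 ± 0.281 at 24 h (adjusted p = 0.00923). The calls of VP64_Ctrl held without the library that stood furthest apart, at 0.87, 1.08 and 1.30 (adjusted p = 0.0359, 0.00747 and 0.00205). None of these 6 calls held with library totals (adjusted p from 0.0913 to 0.913). Over log2(TPM + 1), where the median of all genes also moved, the 6 h value of VP64_Ctrl turned to -0.02. Leaving out 1 library ended the calls of VP64_Ctrl at 6 h (0.56 without replicate 1 of 0 h and 0.43 without replicate 1 of 6 h), H47_KO at 6 h (0.62 without replicate 2 of 6 h) and VP64_A at 24 h (0.92 without replicate 2 of 0 h and 0.87 without replicate 1 of 24 h).

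ITGA3, a laminin-binding subunit, had a lower mean at 24 h than at 0 h in each group. In VP64_Ctrl the mean was already lower at 6 h (61.66 CPM at 0 h, 41.14 at 6 h and 37 at 24 h). In H47_KO it had 44.37, 41.68 and 36.86 CPM at 0 h and 25.27, 23.36 and 16.89 at 24 h. In VP64_Ctrl it had 53.01, 51.13 and 80.85 CPM at 0 h and 38.75, 35.32 and 36.93 at 24 h. The fall at 24 h was 0.92 ± 0.181 on the log2 scale in H47_KO (log2 fold change -0.92, adjusted p = 0.000321, edgeR), and the log2 fold change was -0.73 ± 0.203 in VP64_Ctrl (adjusted p = 0.0117; -0.51 and adjusted p = 0.102 without the library that stood furthest apart). It was -0.55 ± 0.193 in H47_Ctrl (adjusted p = 0.0658) and -0.28 ± 0.200 in VP64_A (adjusted p = 0.427). The lower value of VP64_Ctrl at 6 h (-0.58 ± 0.207, adjusted p = 0.0348) came with overlapping libraries and was lost without replicate 3 of 0 h or replicate 1 or 3 of 6 h (-0.37, -0.39 and -0.54). From 6 to 24 h ITGA3 fell in H47_Ctrl (-0.72 ± 0.192, adjusted p = 0.00930) and H47_KO (-0.70 ± 0.192, adjusted p = 0.00761), and these calls were lost without replicate 2 of 6 h (-0.62 and -0.51), replicate 1 of 24 h in H47_Ctrl (-0.60) or replicate 3 of 24 h in H47_KO (-0.55). With library totals the second was -0.14 (adjusted p = 0.672). Against 0 h, that scale added calls in H47_KO at 6 h (-0.74, adjusted p = 0.0165, edgeR) and VP64_Ctrl at 12 h (-0.99, adjusted p = 0.00332). It also added 1 in H47_Ctrl at 24 h (-0.77, adjusted p = 0.04997, edgeR).

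Of the αV receptor genes other than ITGB1, ITGB3 had the highest log2 fold change at 24 h in each group. ITGAV was the next (0.38 in H47_Ctrl, 0.95 in H47_KO, 0.91 in VP64_Ctrl and 0.87 in VP64_A) and ITGB5 the lowest (-0.28, -0.57, -0.33 and -0.17). At 6 h the log2 fold change of ITGAV was above that of ITGB3 in 3 of the 4 groups, and differences between genes were not tested. ITGB3, the β subunit of the vitronectin receptor αVβ3, was the rarest member by mean TPM at 0 h in each group, with 3 to 80 estimated counts per library over the whole course. In VP64_Ctrl it had 0.6617, 1.409 and 2.396 CPM at 0 h and 8.976, 10.04 and 6.133 at 24 h. In VP64_A it had 2.576, 3.27 and 1.647 CPM at 0 h and 9.922, 9.609 and 12.64 at 24 h. The 0 h and 24 h libraries did not overlap in any group, and ITGB3 rose at 24 h by 2.54 ± 0.400 in VP64_Ctrl, 2.09 ± 0.378 in VP64_A and 1.69 ± 0.507 in H47_KO (adjusted p = 1.38e-05, 0.000128 and 0.0190, edgeR), with 1.13 ± 0.508 in H47_Ctrl (adjusted p = 0.184). The first 2 held on leaving out each library in turn, and the rise in H47_KO was lost without replicate 1 or 3 of 0 h or replicate 1 of 24 h (1.68, 1.28 and 1.25). At 12 h it rose in H47_KO (1.39 ± 0.521, adjusted p = 0.0448), VP64_Ctrl (1.28 ± 0.434, adjusted p = 0.0268) and VP64_A (1.29 ± 0.387, adjusted p = 0.0161). These 12 h calls were lost with library totals (1.20, 0.65 and 1.08) and without replicate 2 of 12 h (0.45, 1.08 and 0.92). They were also lost without replicate 1 or 3 of 0 h or replicate 3 of 12 h in H47_KO (1.38, 1.00 and 1.46), replicate 1 or 2 of 0 h or replicate 1 of 12 h in VP64_Ctrl (0.88, 1.28 and 1.30) and replicate 3 of 0 h in VP64_A (1.08). From 6 to 24 h it rose by 1.91 ± 0.436 in VP64_Ctrl and 1.56 ± 0.389 in VP64_A (adjusted p = 0.00189 and 0.00610). Without the library that stood furthest apart, the rise of VP64_Ctrl was 1.68 at 12 h and 2.95 at 24 h (adjusted p = 0.00847 and 7.49e-06).

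ITGB5, the β subunit that ITGB3 can replace beside αV, lay between 21.8 and 57.81 CPM in all 48 libraries. Of its 12 changes against 0 h, that of H47_KO at 24 h passed (-0.57 ± 0.172, adjusted p = 0.0214), and it was lost without replicate 1 or 2 of 0 h or replicate 1 of 24 h (-0.50, -0.54 and -0.41) and with library totals (-0.44, adjusted p = 0.376). Library totals instead called falls in VP64_Ctrl at 6, 12 and 24 h (-0.95, -0.79 and -0.785, adjusted p = 0.00107, 0.00589 and 0.0114, edgeR). They also called a fall in H47_KO at 6 h (-0.71, adjusted p = 0.0346, edgeR). On this scale the median of all genes moved by up to -0.785. The ratio of ITGB3 to ITGB5 in TPM went from 0.0250 ± 0.0145 at 0 h to 0.180 ± 0.0650 at 24 h in VP64_Ctrl, from 0.0598 ± 0.0166 to 0.296 ± 0.0901 in VP64_A, from 0.0591 ± 0.0148 to 0.152 ± 0.0421 in H47_Ctrl and from 0.0237 ± 0.0145 to 0.122 ± 0.0850 in H47_KO. ITGB5 stayed the more abundant of the 2 in every library. ITGAV had 8.678 to 70.47 CPM, and rose in H47_KO at all 3 times (0.93 ± 0.294, 1.10 ± 0.281 and 0.95 ± 0.280, adjusted p = 0.0199, 0.00347 and 0.0173), in VP64_A at 6 and 12 h (1.29 ± 0.300 and 0.84 ± 0.306, adjusted p = 0.00210 and 0.0498) and in VP64_Ctrl at 24 h (0.91 ± 0.278, adjusted p = 0.0220). Each of these 6 calls was lost on leaving out at least 1 library. Without replicate 2 of 12 h that of H47_KO was 0.79 (adjusted p = 0.0593), without replicate 1 of 6 h that of VP64_A was 0.73 (adjusted p = 0.103), and that of VP64_A at 12 h was lost without any 1 of its 6 libraries (0.73 to 0.92). The 6 h call of H47_KO was lost without replicate 1 or 2 of 0 h or of 6 h (0.69 to 0.85), its 24 h call without replicate 1 or 2 of 0 h or replicate 3 of 24 h (0.70 to 0.83), and that of VP64_Ctrl without replicate 1 or 2 of 0 h or replicate 2 or 3 of 24 h (0.72 to 0.88), whereas it was 1.09 (adjusted p = 0.0148) without the library that stood furthest apart. With library totals 5 of the 6 were lost, and that of VP64_A at 6 h remained.

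ITGB1, the β subunit shared by the collagen, laminin and fibronectin receptors, rose in VP64_Ctrl by 1.31 ± 0.288, 1.22 ± 0.287 and 0.96 ± 0.286 at 6, 12 and 24 h (adjusted p = 0.000843, 0.00169 and 0.0188, edgeR). It had 2527, 2729 and 1129 CPM there at 0 h and 4910, 5047 and 5879 at 6 h. The lowest value was that of the library that stood furthest apart, and without it the changes were 0.98, 0.89 and 0.64 (adjusted p = 0.00574, 0.0119 and 0.0984). The 24 h call was also lost without replicate 1 or 2 of 24 h (0.81 and 0.86). With library totals the 3 changes were 0.63, 0.64 and 0.58, each past the threshold (adjusted p = 0.00118, 0.00124 and 0.00607). In VP64_A it began at 4817, 4717 and 4924 CPM and had 6602, 6146 and 6183 at 24 h (0.39 ± 0.284, adjusted p = 0.430). In H47_Ctrl the log2 fold change was between -0.04 and 0.40, and in H47_KO between 0.30 and 0.81, with no call. Without replicate 3 of 24 h, which alters the shared estimate of spread, the 6 h value of H47_KO passed (0.84, adjusted p = 0.0422). The TPM of ITGB1 over that of the 6 α subunits was 8.54 ± 2.00 in H47_Ctrl and 9.24 ± 1.14 in VP64_A at 0 h, and 4.19 ± 0.888 and 4.23 ± 0.947 at 6 h. In VP64_Ctrl it was 5.11 ± 2.15 and 4.86 ± 0.458.

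In H47_KO over H47_Ctrl, ITGA11 was the member that differed, at 1 time. ITGA11 encodes the α subunit of the collagen receptor α11β1 of fibroblasts and other mesenchymal cells. In H47_Ctrl it had 4.591, 5.956 and 4.322 CPM at 0 h, 2.875, 3.98 and 2.454 at 6 h, 3.31, 3.271 and 1.813 at 12 h and 3.235, 1.869 and 2.853 at 24 h. In H47_KO it had 9.37, 9.231 and 12.9, then 7.545, 11.4 and 5.81, then 12.1, 8.245 and 15.92, then 6.121, 6.068 and 6.305 CPM. At each of the 4 times all 3 H47_KO libraries lay above the 3 H47_Ctrl libraries, and the share of all genes that do so was not counted. In order of time the log2 fold change was 1.07 ± 0.296, 1.36 ± 0.344, 2.08 ± 0.352 and 1.14 ± 0.346 (adjusted p = 0.101, 0.0711, 0.00401 and 0.223, edgeR), on 4 to 37 counts per H47_Ctrl library and 18 to 98 per H47_KO library. ITGA11 at 12 h was the 1 member called of 40 tests, where 0.301%, 0.319%, 0.0821% and 0.21% of all genes passed at 0, 6, 12 and 24 h. The 12 h call was lost without replicate 3 of H47_Ctrl (1.85, adjusted p = 0.0790) or replicate 3 of H47_KO (1.85, adjusted p = 0.0546), and with library totals (2.00, adjusted p = 0.0686). DESeq2 gave the same size (2.09) without an adjusted p, since it set ITGA11 aside for its low count. FN1, the ligand, had -0.47 ± 0.412, 0.26 ± 0.412, -0.14 ± 0.412 and -0.68 ± 0.413 in H47_KO over H47_Ctrl at the 4 times, with adjusted p from 0.602 to 0.960. Across 8 other settings its 6 h value ran from -0.115 to 0.28.

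In the CRISPRa arm 9 of 40 tests passed. They were 4 at 0 h (9.41% of all genes passed), 2 at 6 h (3.76%), 2 at 12 h (4.31%) and 1 at 24 h (4.13%). ITGA11 differed most by far. It had 1.241, 1.243 and 3.294 CPM in VP64_Ctrl and 30.05, 37.1 and 29.16 in VP64_A at 0 h, and 1.197, 2.268 and 1.661 against 21.15, 25.05 and 25.28 at 24 h. The lowest VP64_A library lay above the highest VP64_Ctrl library at every time, on 5 to 22 counts per VP64_Ctrl library and 70 to 350 per VP64_A library. The level of ITGA11 in VP64_A was 18.1, 21.5, 13.96 and 14.7 times that in VP64_Ctrl, in order of time (log2 fold change 4.17 ± 0.285, 4.42 ± 0.349, 3.80 ± 0.311 and 3.87 ± 0.323; adjusted p = 2.41e-12, 1.17e-10, 2.36e-10 and 3.10e-10). Each call held on leaving out any 1 library, and the value at 0 h was 4.67 (adjusted p = 8.90e-13) without the library that stood furthest apart. ITGA11 was thus higher than in the control in VP64_A, whose GLIS3 was above it, with a call at all 4 times. It was also higher in H47_KO, whose mean GLIS3 was below its control, with a call at 12 h alone.

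**Figure D4:**
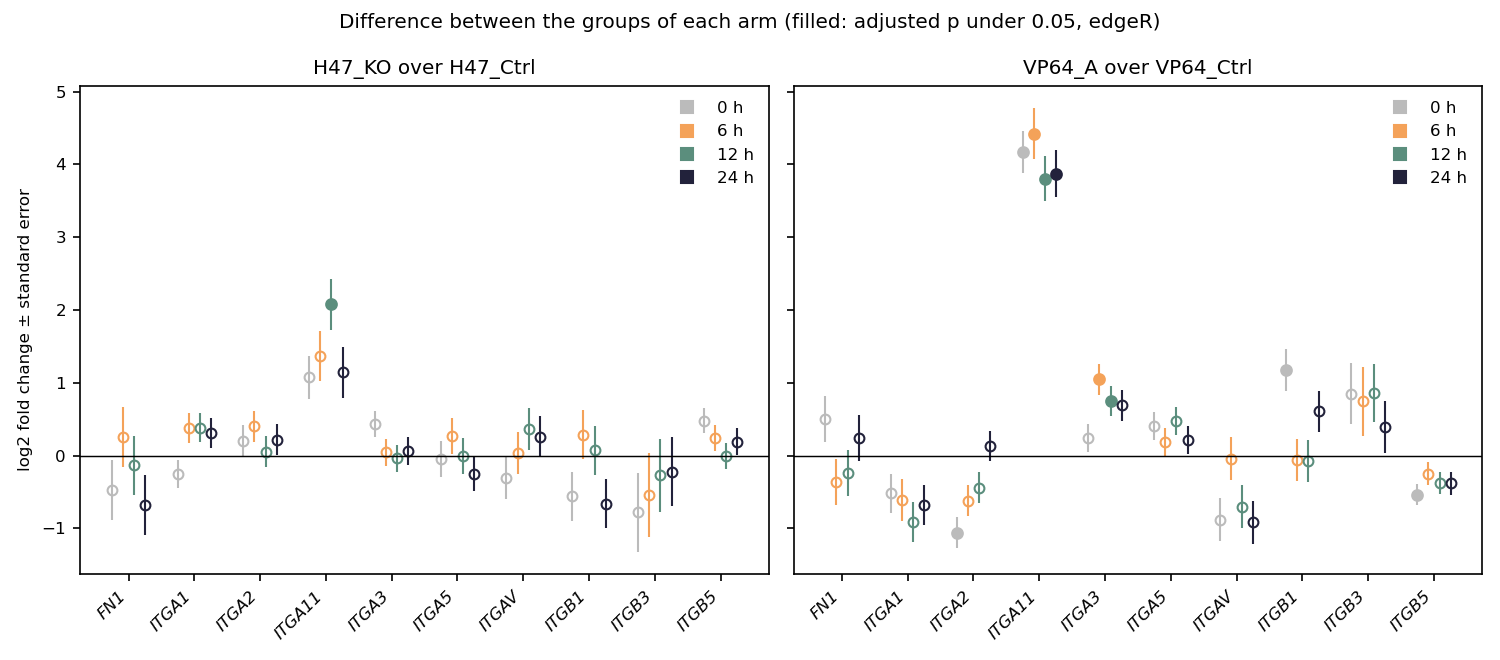
Log2 fold change with its standard error for each gene at 0, 6, 12 and 24 h (colours), in H47_KO over H47_Ctrl (left) and VP64_A over VP64_Ctrl (right), with filled points where the edgeR adjusted p was under 0.05. ITGA11 lies above 0 at every time in both panels, at 1.07 to 2.08 on the left and 3.80 to 4.42 on the right.

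The collagen-binding α subunits therefore differed in make-up between VP64_A and VP64_Ctrl. ITGA2 was lower in VP64_A at 0 h (33.31, 35.47 and 43.33 against 72.7, 59.41 and 101.8 CPM; log2 fold change -1.06 ± 0.215, adjusted p = 0.00122, and -0.83 and adjusted p = 0.0202 without the library that stood furthest apart), and at 24 h the difference was 0.13 ± 0.209 (adjusted p = 0.850). ITGA1 had -0.52 ± 0.271, -0.61 ± 0.282, -0.91 ± 0.278 and -0.68 ± 0.269 at the 4 times, none past the threshold with edgeR (adjusted p from 0.0569 to 0.325). Its 12 h value passed with DESeq2 (-0.90, adjusted p = 0.0478), and in edgeR without a filter, with the replicate block and with only the libraries compared. In those same 3 edgeR settings ITGA2 at 6 h passed too, whereas in the main fit it missed the threshold (-0.62, adjusted p = 0.1125). Of the summed TPM of ITGA1, ITGA2 and ITGA11, ITGA11 held 49.3% ± 5.76 in VP64_A and 2.71% ± 1.18 in VP64_Ctrl at 0 h, and 17.1% ± 2.79 and 1.44% ± 0.510 at 24 h (SD, n = 3 for each). In H47_Ctrl and H47_KO at 0 h it held 4.38% ± 0.646 and 8.49% ± 0.997. ITGA2 held 36.6% ± 4.31 in VP64_A at 0 h and 72.3% ± 1.77 at 6 h. The summed TPM of the 3 subunits was 19.5 ± 1.41 in VP64_A and 27.1 ± 14.8 in VP64_Ctrl at 0 h, so the libraries overlapped in the sum.

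**Figure D5:**
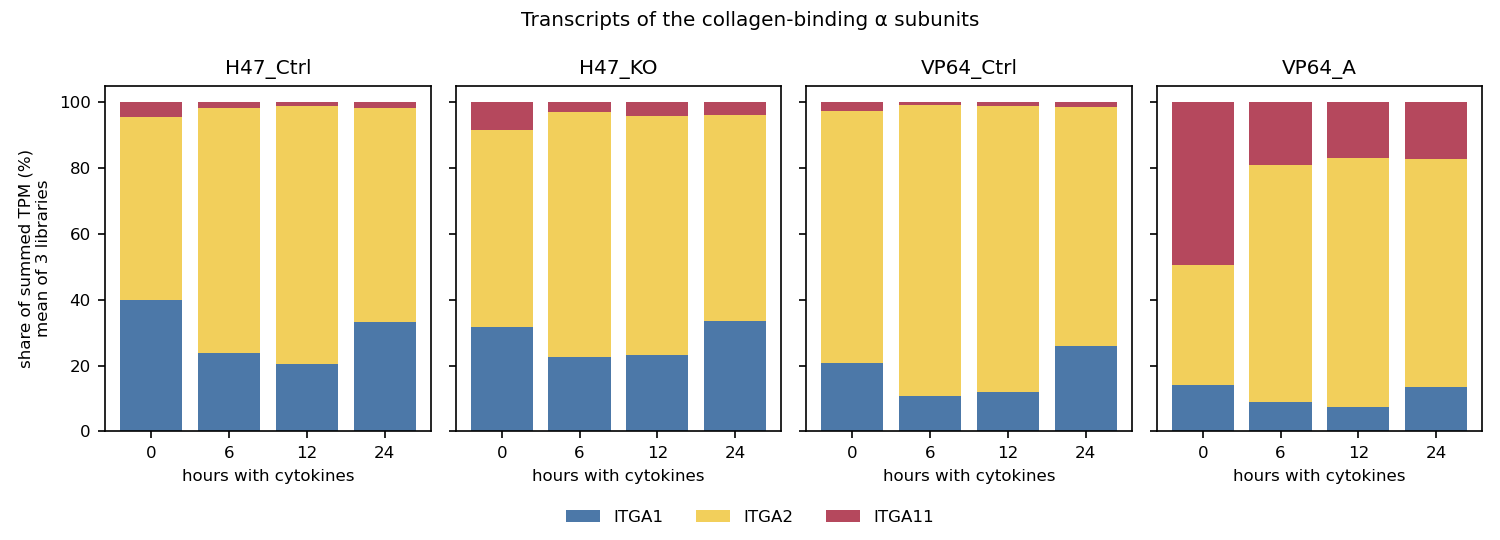
Shares of ITGA1, ITGA2 and ITGA11 in their summed TPM (%, mean of 3 libraries, stacked to 100) by group and hours with the cytokines. ITGA11 takes 49.3% in VP64_A at 0 h and at most 8.49% in the other 3 groups.

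Other members called in VP64_A over VP64_Ctrl were ITGB1, ITGB5 and ITGA3. ITGAV missed the threshold at 0, 12 and 24 h (-0.88, -0.70 and -0.915, adjusted p = 0.0519, 0.227 and 0.0787, edgeR), and was -0.04 at 6 h. It passed at 0 h with DESeq2 (-0.88, adjusted p = 0.0463). ITGA3 at 24 h also missed it (0.69, adjusted p = 0.0539, edgeR), and passed with DESeq2 (0.69, adjusted p = 0.0402). ITGB1 was higher in VP64_A at 0 h (1.18 ± 0.287, adjusted p = 0.00720; 0.87 and adjusted p = 0.0450 without the library that stood furthest apart; 0.88 and adjusted p = 0.000135 with library totals), and missed the threshold when only the 6 libraries compared were fitted (adjusted p = 0.0766). ITGB5 was lower at 0 h (27.82, 31.06 and 27.02 against 44.25, 39.19 and 41.47 CPM; -0.54 ± 0.145, adjusted p = 0.0148), a call lost without replicate 1 or 3 of VP64_A or replicate 1 of VP64_Ctrl (-0.52, -0.51 and -0.49) and kept without the library that stood furthest apart (-0.55, adjusted p = 0.0424). ITGA3 was higher at 6 h (83.15, 77.91 and 93.66 against 32.51, 53.24 and 37.67 CPM; 1.05 ± 0.209, adjusted p = 0.00141) and at 12 h (0.75 ± 0.203, adjusted p = 0.0241). The 12 h call was lost without replicate 2 or 3 of VP64_A (0.77 and 0.61) or replicate 1 or 3 of VP64_Ctrl (0.58 and 0.69), and with library totals (0.70, adjusted p = 0.226). FN1 and ITGA5 had no call, with log2 fold changes from -0.36 to 0.50 and from 0.18 to 0.48. Across 8 other settings FN1 at 0 h ran from 0.003 to 0.506, and ITGA5 at 24 h from -0.1 to 0.215.

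With edgeR as fitted here, no difference between the responses of 2 groups passed the adjusted threshold for a member. In H47_KO minus H47_Ctrl (0.00912%, 0% and 0% of all genes passed, in order of time), 0 of 30 tests passed with edgeR and 0 with DESeq2, and 3 had an unadjusted p under 0.05 with edgeR (7.93%, 6.47% and 5.62% of all genes). In VP64_A minus VP64_Ctrl (0.0911%, 0.264% and 0.209%), 0 of 30 passed with edgeR, 3 with DESeq2, and 5 had an unadjusted p under 0.05 (9.43%, 10.9% and 7.11% of all genes). The 3 were ITGB1 at 6 and 12 h, whose rise was smaller in VP64_A by 1.24 ± 0.402 and 1.25 ± 0.402 on the log2 scale (log2 differences -1.24 and -1.25; edgeR adjusted p = 0.320 and 0.211, DESeq2 adjusted p = 0.0338 and 0.0447), and ITGA2 at 24 h, whose rise was larger by 1.19 ± 0.299 (edgeR adjusted p = 0.114, DESeq2 adjusted p = 0.0389). Scaled by library totals, the ITGB1 difference of VP64_A minus VP64_Ctrl at 12 h was -0.99 and passed (adjusted p = 0.0285, edgeR). In VP64_Ctrl minus H47_Ctrl, the responses of the 2 controls (0.429%, 0.341% and 0.49%), 0 of 30 passed with edgeR, 2 with DESeq2 (ITGB1 at 6 h and ITGA1 at 24 h), and 11 had an unadjusted p under 0.05 (13.6%, 10.9% and 7.83% of all genes). A response called in 1 group alone is therefore not shown to differ from that of another.

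Of the other 17 integrin subunits of the table, 7 never exceeded 3 counts in a library. The filter was passed by 3 among the CRISPRko libraries and 4 among the CRISPRa libraries. ITGA4, which binds fibronectin and VCAM1, had a median of 11.5 TPM, ITGAE 6.66 and ITGA6, a laminin-binding subunit, 5.14. The median of ITGA4 was thus above those of the member ITGAV, which were 2.481 to 7.815 TPM in the 4 groups. ITGA6 fell at 24 h in all 4 groups, with log2 fold changes of -1.12 ± 0.342 in H47_Ctrl, -1.35 ± 0.333 in H47_KO, -1.10 ± 0.240 in VP64_Ctrl and -0.97 ± 0.226 in VP64_A (adjusted p = 0.0293, 0.00409, 0.00119 and 0.00262, edgeR). ITGA3, a member that binds laminin, changed in the same direction, with a call in H47_KO and VP64_Ctrl. Of these other subunits, 2 of 3 tested were lower at 24 h in H47_Ctrl and 1 of 3 in H47_KO. In VP64_Ctrl 1 of 4 was lower and in VP64_A 2 of 4. The share of all genes that passed was 10.3%, 15.8%, 16% and 13.6%. In VP64_A over VP64_Ctrl, ITGA4 was lower at all 4 times (-0.83 to -1.09) and ITGA6 higher at 0 and 24 h (0.91 ± 0.214 and 1.04 ± 0.251). ITGB2 also passed at 6 and 12 h, on at most 20 counts in any library.

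Genes of the adhesion complex, which link integrins to actin (28 listed, 27 in the table, 25 tested), and other integrin ligands and fibronectin partners (26 listed, 24 in the table, 22 and 20 tested in the 2 arms) were taken as lists. Of the adhesion genes, 5 were higher and 1 lower at 24 h against 0 h in H47_Ctrl, 5 and 1 in H47_KO, 8 and 0 in VP64_Ctrl and 6 and 1 in VP64_A, where 10.3%, 15.8%, 16% and 13.6% of all genes passed in either direction, with list medians of 0.18, 0.22, 0.24 and 0.34. Among the ligands and partners 4 were higher and 0 lower in H47_Ctrl, 5 and 2 in H47_KO, 7 and 0 in VP64_Ctrl and 3 and 2 in VP64_A, with list medians of 0.36, 0.20, 0.31 and 0.06, against the same shares of all genes. The values of the lists were not computed without the library that stood furthest apart. The largest calls of these lists and the other subunits in VP64_Ctrl at 24 h were THBS1 (3.75 ± 0.322), TNC (2.29 ± 0.252), COL1A1 (1.53 ± 0.345) and TNS1 (1.51 ± 0.257), which encode the matrix proteins thrombospondin-1 and tenascin-C, a collagen I chain and the adhesion protein tensin-1. In H47_Ctrl at 6 h they were SDC4 (2.44 ± 0.233), a syndecan that binds fibronectin beside α5β1, TNS1 (1.79 ± 0.217), FBLN1 (-1.56 ± 0.333) and TNC (1.51 ± 0.297). In VP64_A over VP64_Ctrl at 0 h, 8 ligands and partners were higher and 1 lower (9.41% of all genes passed), among them TGFBI (2.34 ± 0.191), a TGFβ-induced matrix protein that binds integrins, LTBP1 (2.10 ± 0.201), a binding protein of latent TGFβ, COL1A1 (1.98 ± 0.350) and SPP1 (-1.86 ± 0.592), and 1 adhesion gene was higher and 1 lower. In H47_KO over H47_Ctrl, TGFBI alone of these lists passed, lower at 0, 6 and 24 h (-1.27 ± 0.239, -1.16 ± 0.239 and -1.25 ± 0.238, adjusted p = 0.0118, 0.0208 and 0.0145).

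The genes whose mean log2 CPM over the 16 conditions was most like each member's were ranked by Pearson's r among 10691 genes. The points share the time course and the normalization, and no test was made. For FN1 it was TPM1 (r = 0.94), for ITGA5 SHOX (0.97), JUNB (0.94) and ACTN1 (0.93), for ITGA2 HAS2 (0.96), for ITGB3 FAP (0.96), for ITGB1 TMED2 (0.93) and for ITGB5 SLC38A11 (0.95). ITGA1 and ITGAV were among the 3 most alike of each other (r = 0.94). For ITGA3 it was MRPL37 (0.94), and for ITGA11 LOXL3 (0.89), with FBN1, the microfibril protein fibrillin-1, the third (0.85).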

How the data were processed

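Per the paper, mRNA was purified from the total RNA of each fibroblast sample. It was made into 48 Nextera XT libraries and sequenced. Per the labels, the authors used Trim Galore, STAR and Salmon with GRCh38 (versions not given in the sources used here) and DESeq2. They deposited estimated counts per gene, unscaled, and TPM, which divides by transcript length and library size. Of the estimated counts 6.38% were not whole and were rounded.

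edgeR 4.0.16 in R 4.3.3 was run on each arm (24 libraries, 8 groups): filterByExpr (minimum count 10, total 15), TMM factors and the quasi-likelihood test, with Benjamini-Hochberg adjustment across 10962 (CRISPRko) or 10980 (CRISPRa) genes. The 2 controls were compared in a fit of all 48 libraries (11422 genes). CPM use TMM-scaled totals. Shares and ratios use counts or TPM directly. The code was tested on simulated data. Alternatives were DESeq2 1.42.0, its size factors within edgeR, no filter, blocking on replicate number, limma 3.58.1 for log2(TPM + 1) and log2(TPM + 0.1), a required absolute log2 fold change of 1, fits of only the libraries compared, and leaving out each library. Library totals without TMM were added after seeing the data.

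All 10 members are named, with up to 4 genes of the other lists per comparison by largest change among those called. ITGA4, ITGA6, ITGAE and ITGB2 were picked after their values were seen. Members and lists were chosen with earlier results of these data known. Salmon divides reads between similar transcripts, and strand use was not stated. All columns matched a sample. Coordinates are from GENCODE 44.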

Additional observations from a re-analysis of the deposited data

How the results depend on the processing

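Of 69 calls for the members, 41 were kept on leaving out each of the 6 libraries compared in turn, 27 in some of these fits and 1, ITGAV in VP64_A at 12 h, in none. DESeq2 kept 67 of 68 with an adjusted p, its size factors in edgeR 68 of 69, no filter 68, only the libraries compared 59, library totals without TMM (chosen after seeing the data) 49, limma on log2(TPM + 1) 45, limma on log2(TPM + 0.1) 45, and a minimum absolute log2 fold change of 1 47. The median of all genes moved by up to -0.81 over log2(TPM + 0.1), -0.65 over log2(TPM + 1) and -0.79 with library totals, and by less than 0.1 under the other settings. ITGA1 in VP64_Ctrl at 6 h reversed over log2(TPM + 1) (-0.017) and log2(TPM + 0.1) (-0.018); the cause was not tested.

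Calls after cytokines in H47_Ctrl (5) became 8 with only the libraries compared and 3 with a minimum change of 1, and 3 to 6 on leaving out a library; in H47_KO (13) they became 6 with a minimum change of 1 and 8 to 14, in VP64_Ctrl (20) 17 to 21 and in VP64_A (13) 10 to 14. From 6 to 24 h, 2 calls became 0 with a minimum change of 1 in H47_Ctrl (1 to 2 on leaving out a library), 1 in H47_KO (1 to 4; 4 without replicate 1 of 24 h), and 1 over log2(TPM + 0.1) in VP64_A (1 to 2). The 1 call of H47_KO over H47_Ctrl became 0 with DESeq2, which gave ITGA11 no adjusted p, 0 with both limma settings and with library totals, and 0 to 1 on leaving out a library. The 9 calls of VP64_A over VP64_Ctrl became 15 without a filter and 14 with only the libraries compared (8 to 12). The 0 calls for the difference of responses in the CRISPRa arm became 3 with DESeq2, and 1 without a filter, with the replicate block, over log2(TPM + 1) and with library totals (0 to 1), and the 0 between the controls became 2 with DESeq2 and library totals and 1 without a filter (0 to 1). Causes were not tested.

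Replicate numbers give the order of the descriptions within a condition, since the descriptions number the libraries on through the whole series. Same-numbered libraries deviated with r from -0.20 to 0.16 in the CRISPRko arm and -0.14 to 0.19 in the CRISPRa arm. Of 24 libraries per arm, 10 and 13 correlated best with their own number, and the number without any pairing was not computed. The replicate block kept 67 of the 69 calls and gave 1 for the difference of responses in the CRISPRa arm, ITGA2 at 24 h. Depth limits ITGA11 and ITGB3, with as few as 4 and 3 counts in a library.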
